A study of Danio rerio with 4 samples.

Results

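The regions described here are the 5hmC peaks called on the unplaced scaffolds of the zebrafish genome. They were taken as every row of the 2 deposited peak lists whose sequence name was not one of chromosomes 1 to 25. By that rule 2153 of 82703 tet2/3 morpholino peaks (2.60%) and 4012 of 230603 control morpholino peaks (1.74%) were members. All their names began with KN or KZ and none was mitochondrial; that each is unplaced was taken from the name, not from an assembly report. Each list came from 1 pull-down, so no test between the groups was possible, and every difference below has no replicate check. The tet2/3 group had received the tet2/3 double morpholino and the control group a control morpholino. A morpholino is a modified antisense oligomer that keeps its transcript from being translated or spliced, and it leaves the genome of the injected fish as it was. Both groups were sampled at 48 hours after fertilisation (hpf). The tissue label reads embryo in both, while the extraction protocol names head DNA. In the assay (hMeDIP), fragments of single-stranded DNA that carry 5hmC are captured with an antibody and sequenced. No further allele, agent or strain is given in the labels.

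5-hydroxymethylcytosine is made when TET enzymes oxidise 5-methylcytosine, and in vertebrates it is found mainly in gene bodies and enhancers of differentiating cells and neurons. In zebrafish embryos Tet2 and Tet3 make most of it. Unplaced scaffolds are assembled stretches of DNA for which the assembly gives no position on a chromosome. They are often short and rich in repeats or in copies of sequence that also lies on a chromosome. All coordinates are 1-based in GRCz11, the build named with danRer11 in the submitters' processing notes. The scaffolds are named as in the files, no gene annotation of this build was used, and no peak is assigned to a gene.

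After tet2/3 knockdown fewer peaks were called on the scaffolds, but the deficit was smaller there than on any chromosome. The tet2/3 morpholino list held 0.537 peaks for each control peak on scaffolds (95% interval 0.509 to 0.566, exact binomial). On chromosomes 1 to 25 it held 0.355 (0.353 to 0.358). Single chromosomes averaged 0.355 ± 0.0149 (SD, 25 chromosomes). The lowest was 0.326 (chromosome 9) and the highest 0.386 (chromosome 13), so all lay below the scaffolds. The same order was seen in covered length. Tet2/3 morpholino peaks covered 0.839 Mb of scaffold and control peaks 1.98 Mb, a ratio of 0.424, against 0.263 on the chromosomes. Intervals on counts and shares cover counting error only, and neighbouring peaks of a library are not independent.

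The outermost 1 Mb of the chromosomes had a higher ratio than the scaffolds, at 0.738 (0.719 to 0.758). Chromosome 4 from 30 Mb onwards lay between the scaffolds and the other chromosomes, at 0.434 (0.392 to 0.478).

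**Figure D1:**
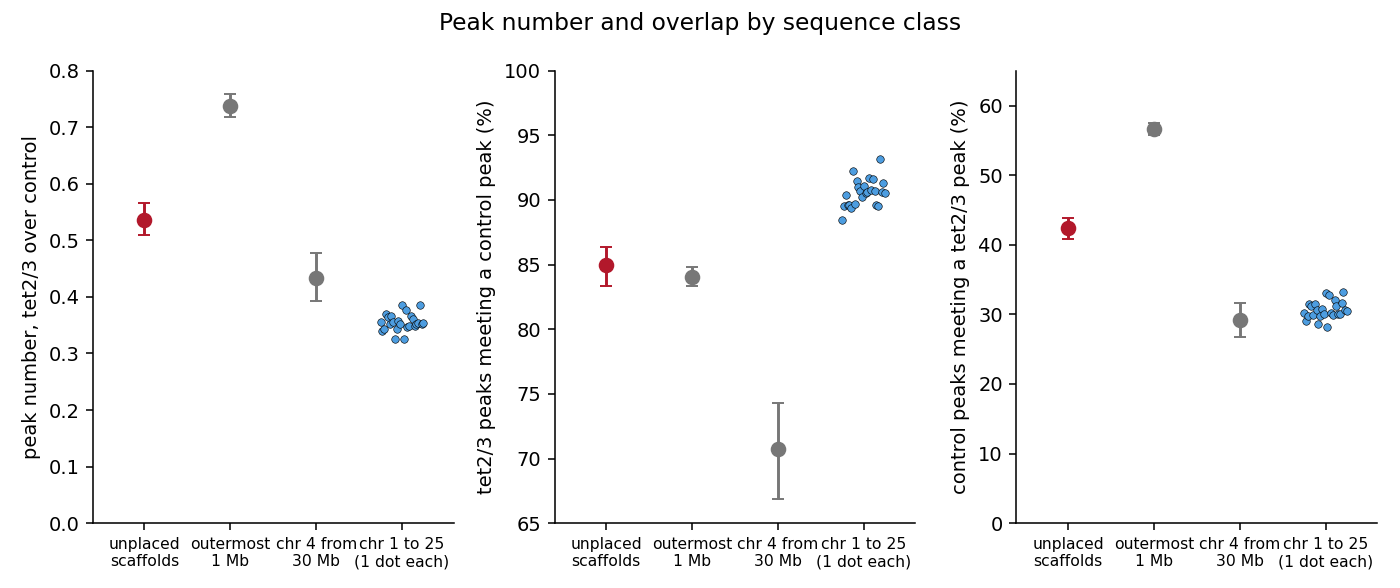
Peak number in the tet2/3 morpholino list over the control list (left), percent of tet2/3 morpholino peaks met by a control peak over 1 bp or more (middle, axis from 65%) and percent of control peaks met in the same way by a tet2/3 morpholino peak (right). Large points with 95% intervals are the scaffolds (red), the outermost 1 Mb of chromosomes and chromosome 4 from 30 Mb (grey); each small blue point is 1 chromosome. The scaffolds lie above all 25 chromosomes on the left and right and below all 25 in the middle.

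Scaffold peaks were spread over many sequences with few peaks each. Of 708 scaffolds with a peak in either list, 480 held tet2/3 morpholino peaks and 693 held control peaks. A scaffold with any peak of the list held a median of 3 peaks in both lists. The most peaks on 1 scaffold were 38 in tet2/3 morpholino and 51 in control embryos, both on KN149932.1. A single peak was found on 151 scaffolds in the tet2/3 morpholino list and on 180 in the control list. At the other end, 62 scaffolds with 10 or more tet2/3 morpholino peaks held 42.2% of that list's scaffold peaks. In the control list 123 such scaffolds held 53.4%. The last peak end on a scaffold, a lower bound of its length, had a median of 15.5 kb and reached 365.8 kb. Over the summed 20.2 Mb up to these last ends, the scaffolds held 106.4 tet2/3 morpholino and 198.2 control peaks per Mb. The chromosomes held 59.9 tet2/3 morpholino and 168.5 control peaks per Mb. The lower bound shortens the scaffolds, and the sum leaves out any scaffold without a peak in either list. The scaffold densities are therefore upper bounds. The gap between neighbouring peaks of a list could be taken only on scaffolds with at least 2 peaks of that list, and a gap cannot exceed the scaffold, so it says nothing of the scaffolds with fewer peaks. It had a median of 2123 bp in tet2/3 morpholino and 2094 bp in control scaffold peaks. On chromosomes it was 5570 bp in tet2/3 morpholino and 2615 bp in control peaks. In the outermost 1 Mb of chromosomes, as on scaffolds, the medians were near each other, at 1893 bp in tet2/3 morpholino and 1672 bp in control peaks, and on chromosome 4 from 30 Mb they were 20846.5 bp in tet2/3 morpholino and 16825 bp in control peaks.

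Scaffolds differed widely in how many of their peaks were called after knockdown. The scaffold with the most control peaks, KN149932.1, held 38 tet2/3 morpholino and 51 control peaks. The next by control peaks, KN150021.1, held only 5 tet2/3 morpholino peaks beside 36 control peaks. KN150691.1 held 9 tet2/3 morpholino and 35 control peaks, and KN150048.1 held 14 tet2/3 morpholino and 33 control peaks. KN150171.1 held 25 tet2/3 morpholino and 33 control peaks. The other scaffolds rich in tet2/3 morpholino peaks were KN150529.1, with 29 beside 27 control peaks, KN150646.1, with 25 beside 31, and KN150000.1, with 24 beside 27. Overall 552 scaffolds held fewer tet2/3 morpholino than control peaks, 87 held equal numbers and 69 held more. Among the 123 scaffolds with 10 or more control peaks, 67 had over 0.5 tet2/3 morpholino peaks per control peak and 7 had more than 1.

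**Figure D2:**
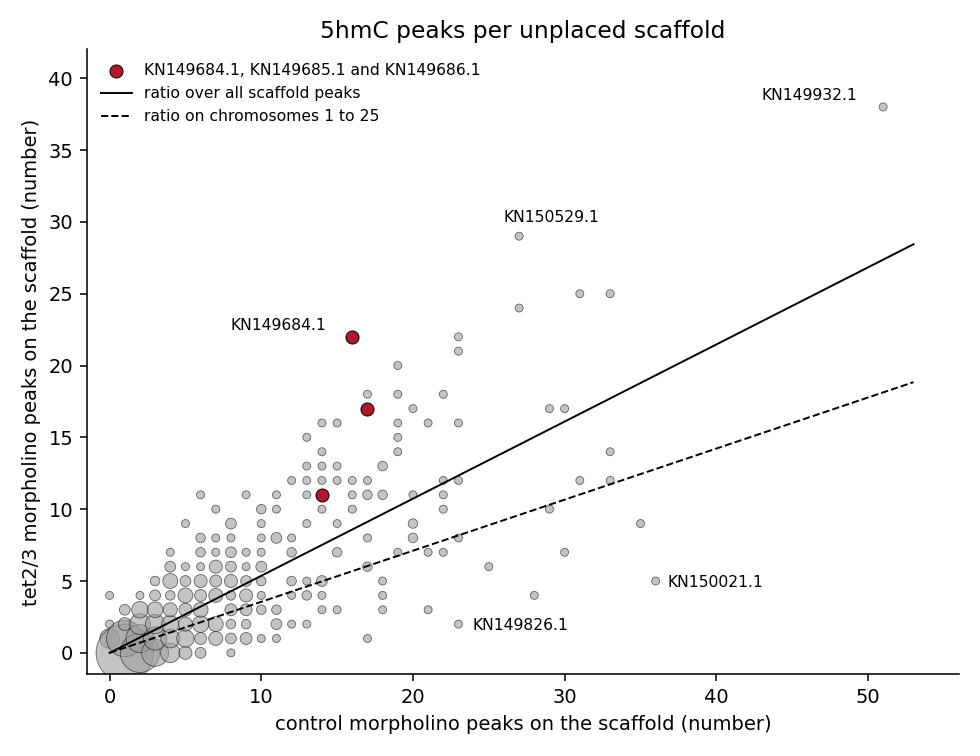
Number of tet2/3 morpholino peaks (vertical) against control morpholino peaks (horizontal) on each of 708 unplaced scaffolds; the area of a grey circle grows with the number of scaffolds at that point. The solid line is the ratio over all scaffold peaks (0.537) and the dashed line that on chromosomes 1 to 25 (0.355). Points spread to both sides of the lines, from KN149826.1 with 2 tet2/3 morpholino and 23 control peaks to KN149684.1 with 22 tet2/3 morpholino and 16 control peaks.

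Length made little difference to the ratio except on the longest scaffolds. It was 0.560 (0.474 to 0.660) on 237 scaffolds with a last peak end below 10 kb, 0.555 (0.506 to 0.608) on 282 from 10 to 30 kb and 0.547 (0.507 to 0.591) on 154 from 30 to 100 kb. On the 35 scaffolds of 100 kb or more it was 0.414 (0.346 to 0.494). The share of control peaks met by a tet2/3 morpholino peak was likewise lowest there, at 34.6% (30.2 to 39.1, Wilson). In the shorter classes it was 40.1 to 44.0%. The class of 100 kb or more held KN149684.1, KN149685.1 and KN149686.1, described below. They gave 50 of its 181 tet2/3 morpholino and 47 of its 437 control peaks. Their ratio was 1.06 and 83.0% of their control peaks were met, so both class values are lower without them. Chromosomes 1 to 25 had a ratio of 0.355 and a control share of 30.6%. By the counts and shares given, the class of 100 kb or more exceeds neither value without these 3 scaffolds. No interval was computed for it. Of tet2/3 morpholino peaks, 76.4% (70.5 to 81.5) were met below 10 kb, against 83.9 to 87.8% in the longer classes. Scaffold names began with KN in 645 cases and with KZ in 63. The ratio was 0.538 (0.510 to 0.568) for KN and 0.505 (0.391 to 0.650) for KZ scaffolds, with intervals that overlap.

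A peak in only one list was common among scaffolds with few peaks. Tet2/3 morpholino peaks alone were found on 15 scaffolds (2.12%), control peaks alone on 228 (32.2%), and both on 465 (65.7%). The 15 scaffolds held 19 tet2/3 morpholino peaks, 0.882% of those on scaffolds, and 13 of them held 1 peak. The 228 scaffolds held 418 control peaks, 10.4% of those on scaffolds, and 123 of them held 1 peak. All 25 chromosomes held peaks of both lists. Peaks on single-list scaffolds were weaker and narrower than those on shared scaffolds of the same list. For tet2/3 morpholino peaks the medians were a fold of 3.99 and 224 bp on tet2/3-only scaffolds, against 4.48 and 313 bp on shared ones. For control peaks they were a fold of 3.50 and 327 bp on control-only scaffolds, against 3.96 and 417 bp on shared ones. By definition no peak on a single-list scaffold overlaps a peak of the other list. Over all scaffold peaks without such an overlap, the medians were 3.86 and 206 bp in tet2/3 morpholino peaks. In control peaks they were 3.42 and 331 bp, so the difference is not shown to be particular to single-list scaffolds. Fold is the authors' value, the pileup at the summit over the local background, and is compared only within a list.

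The scaffold with the most peaks in the tet2/3 morpholino list and none in the control list was KN150579.1, with 4 peaks of median fold 5.18. KN150437.1 followed with 2 peaks, and KN149873.1 was the first by name of the 13 with 1, both on less than 1 kb of sequence up to the last peak end. Among control-only scaffolds, KN150243.2 held 8 peaks, with a median fold of 2.87, and KN149721.1 and KN150462.1 held 6 each, as did KN150644.1. The numbers of single-list scaffolds depended on the threshold. With both lists limited to a −log10 q of 5 or more, 9 were tet2/3-only and 286 control-only. With both limited to a fold of 4 or more, 47 were tet2/3-only and 152 control-only.

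Fewer of the tet2/3 morpholino peaks, and more of the control peaks, met a peak of the other list on scaffolds than on chromosomes. Of the tet2/3 morpholino scaffold peaks, 1829 of 2153 (85.0%, 83.4 to 86.4) were met by a control peak, that is, overlapped it by 1 bp or more, where 90.4% of the whole list were. On chromosomes the share was 90.6%, with a range of 88.4% on chromosome 1 to 93.2% on chromosome 22. Of the control scaffold peaks, 1699 of 4012 (42.3%, 40.8 to 43.9) were met by a tet2/3 morpholino peak, where 30.8% of the whole list were. On chromosomes the share was 30.6%, with a range of 28.1% on chromosome 14 to 33.2% on chromosome 23. Both scaffold shares lay outside the range of the 25 chromosomes. On the 465 scaffolds with peaks of both lists, 47.3% (45.6 to 48.9) of control peaks were met. The lower tet2/3 morpholino share on scaffolds was not seen when 50% of both intervals had to overlap. It was then 50.3% (48.2 to 52.5) on scaffolds and 48.4% on chromosomes, a value within that interval. The outermost 1 Mb of chromosomes resembled the scaffolds in the tet2/3 morpholino share, at 84.1% (83.3 to 84.8), and exceeded them in the control share, at 56.6% (55.7 to 57.4). On chromosome 4 from 30 Mb both shares were below those of the scaffolds, at 70.7% (66.9 to 74.3) of tet2/3 morpholino and 29.2% (26.8 to 31.6) of control peaks. Denser peaks give more overlap by chance, and the part of peak density in these shares was not tested.

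At equal control fold, scaffold peaks were still met more often than chromosome peaks. At a control fold of 2 to 3 the share was 20.8% (18.2 to 23.6) of 862 scaffold peaks and 9.81% (9.56 to 10.1) of chromosome peaks. At 4 to 5 it was 43.7% (39.9 to 47.6) of 645 scaffold peaks and 31.5% (31.1 to 32.0) of chromosome peaks. At 6 to 8 it was 74.6% (70.3 to 78.5) of 433 and 67.3% (66.7 to 67.8). From a control fold of 8 the intervals overlapped, with 88.8% (84.5 to 92.0) and 87.4% (86.8 to 88.0) at 8 to 12. At 12 or more, 38 of 39 scaffold peaks (97.4%) and 97.1% of chromosome peaks were met. On scaffolds 42.3% were met, against the 32.2% that would have been met had each scaffold peak been met as often as chromosome peaks of its fold, a difference of 10.1 points. For tet2/3 morpholino peaks 85.0% were met on scaffolds, against 91.5% by the same sum over tet2/3 morpholino fold. The gap was widest at a tet2/3 morpholino fold of 3 to 4, with 74.1% (70.6 to 77.4) of 646 scaffold peaks and 86.2% (85.8 to 86.6) of chromosome peaks.

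**Figure D3:**
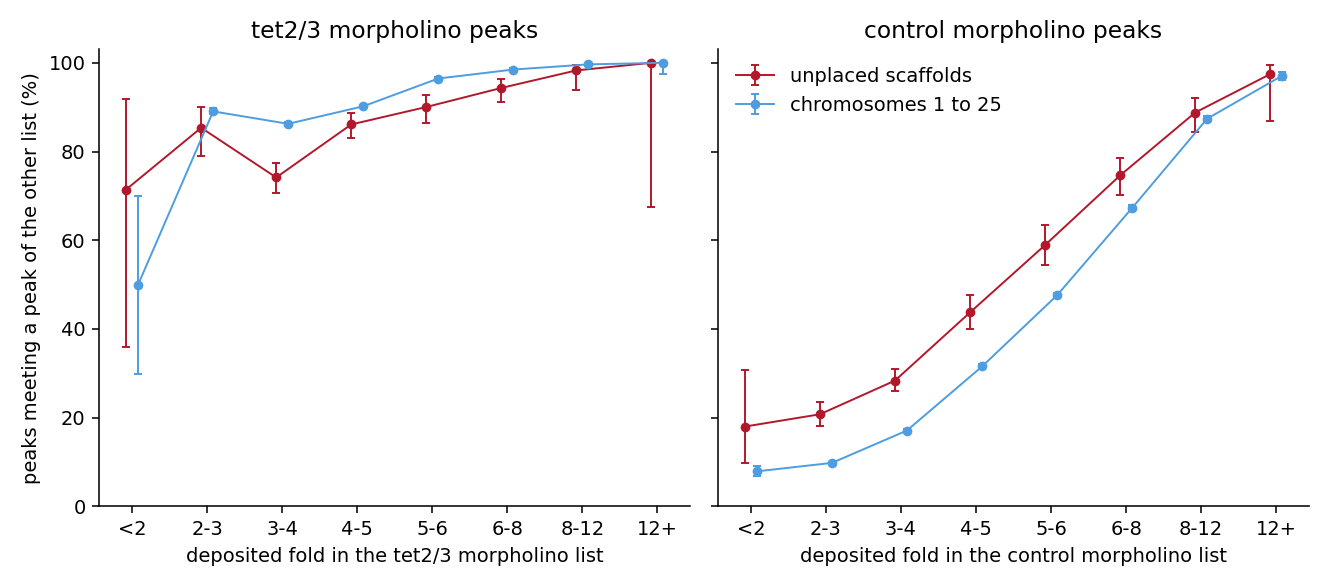
Percent of tet2/3 morpholino peaks (left) and control peaks (right) met by the other list (1 bp or more shared), by the fold deposited for that peak, on unplaced scaffolds (red) and chromosomes 1 to 25 (blue), with 95% Wilson intervals. Control peaks on scaffolds lie above those on chromosomes up to a fold of 8, for example 20.8% against 9.81% at 2 to 3, and tet2/3 morpholino peaks on scaffolds lie below between folds of 3 and 8.

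The local background at scaffold peaks was more often the lowest one in the list. The background is the fragment pileup expected at the summit by the authors' peak caller, solved here from the fold and the p-value of each peak. It is on the pileup scale of its list, 0.474 per fragment in the tet2/3 morpholino and 1 in the control list. Its lowest common value was 2.81 in the tet2/3 morpholino and 7.53 in the control list. That value applied to 45.6% (43.5 to 47.7) of tet2/3 morpholino peaks on scaffolds and 24.9% (24.6 to 25.2) on chromosomes. In the control list it applied to 43.9% (42.4 to 45.5) on scaffolds and 20.8% (20.6 to 21.0) on chromosomes. The highest chromosome reached 29.0% in the tet2/3 morpholino and 25.3% in the control list. High shares were not particular to scaffolds. Chromosome 4 from 30 Mb had 48.4% of tet2/3 morpholino and 39.8% of control peaks at that value, and the outermost 1 Mb of chromosomes had 39.0% of tet2/3 morpholino and 36.7% of control peaks. The upper tail went the other way, with a 99th percentile of 10.0 on scaffolds and 8.00 on chromosomes in the tet2/3 morpholino list, and of 20.2 and 16.0 in the control list. Among control peaks at the lowest background alone, 49.9% of 1763 scaffold peaks were met. Chromosome peaks at that background value and of the same fold would give 35.8%, a difference of 14.0 points. Only the value used by the peak caller was held equal, and the reads of the input libraries at these peaks were not examined. The tet2/3 morpholino background could not be set equal, because it is measurable only where a peak was called.

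In the full lists, tet2/3 morpholino peaks on scaffolds were also stronger and wider than those on chromosomes, while control peaks differed less. The median fold in the tet2/3 morpholino list was 4.48 on scaffolds and 4.11 on chromosomes, above every chromosome. In the control list it was 3.87 and 3.81, within the range of single chromosomes (3.73 to 3.96). The median width in the tet2/3 morpholino list was 312 bp (300 to 322, order-statistic interval) on scaffolds and 285 bp on chromosomes, with single chromosomes from 272 to 306 bp. In the control list it was 403 bp (395 to 413) and 394 bp, with single chromosomes from 382 to 411 bp, 23 of them below the scaffolds. The width contrast between the lists depended on the threshold. At a −log10 q of 5 or more, tet2/3 morpholino medians were 411 bp (390 to 427) on scaffolds and 394 bp on chromosomes. The control medians were then 435 bp (426 to 444) on scaffolds and 423 bp on chromosomes. The middle 50% of scaffold peaks spanned 202 to 483 bp in the tet2/3 morpholino and 292 to 591 bp in the control list. Peaks of 1000 bp or more made up 3.11% of tet2/3 morpholino and 6.08% of control scaffold peaks. On chromosomes they made up 2.52% of tet2/3 morpholino and 5.41% of control peaks. In the outermost 1 Mb of chromosomes the shares were higher, at 5.29% of tet2/3 morpholino and 9.96% of control peaks. The shortest peak was 132 bp in the tet2/3 morpholino and 222 bp in the control list on scaffolds and chromosomes alike, so widths are not compared as sizes between the lists. The outermost 1 Mb of chromosomes had a tet2/3 morpholino median fold of 4.36 and width of 314 bp, near those of the scaffolds, and a control median fold of 3.97 and width of 441 bp. On chromosome 4 from 30 Mb the median widths were lower, at 240 bp in tet2/3 morpholino and 337 bp in control peaks.

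Where a tet2/3 morpholino peak met a control peak, the summits lay close together. The median distance between summits was 69 bp over 1861 scaffold pairs and 70 bp over chromosome pairs. Distances of at most 100 bp made up 61.6% on scaffolds and 63.3% on chromosomes. The intervals were related differently. The tet2/3 morpholino peak lay wholly inside the control peak in 64.2% of scaffold pairs and 76.4% of chromosome pairs, and was the wider one in 14.2% and 7.10%. Control peaks met by 2 or more tet2/3 morpholino peaks numbered 145 on scaffolds (3.61%), against 1.68% on chromosomes. The outermost 1 Mb of chromosomes exceeded the scaffolds in this, at 6.14%, and chromosome 4 from 30 Mb had 1.65%.

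The strongest scaffold peak of the tet2/3 morpholino list lay at KN149855.1:7259-7705, with a fold of 14.6 from 121 fragments. It met a control peak with a fold of 4.69 from 39 fragments. The second, at KN150567.1:19418-19945, had a fold of 14.3 and met a control peak with a fold of 9.32. The third, at KN150407.1:30133-31329, had a fold of 13.4 and met one with 7.03. The next 2 lay at KN150501.1:7817-8632 and KN150342.1:78267-79114, with folds of 12.8 and 12.7. They met control peaks with folds of 11.4 and 11.0. All 5 thus lay on a control peak. So did every tet2/3 morpholino peak with a fold of 12 or more, 8 on scaffolds and 151 on chromosomes.

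The strongest scaffold peak of the control list lay at KN150465.1:666-1738, with a fold of 18.6 from 158 fragments. It met a tet2/3 morpholino peak of 281 bp with a fold of 3.56, below the median of that list. The second, at KZ115993.1:16692-17396, had a fold of 18.5 and met a tet2/3 morpholino peak with a fold of 7.09. The third, at KN150394.1:1764-2419, had 18.3 and met one with 4.84. The fourth, at KN150265.1:42408-43798, had 17.3 and met one with 4.68. The fifth, at KN150592.1:21642-22791, had 16.8 and met one with 9.70. The folds of the lists were made at unlike pileup scales and are given side by side without comparison.

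The widest scaffold peak was the same region in both lists, at KN149948.1. It spanned 112029-116041 (4013 bp) in the tet2/3 morpholino and 112158-116053 (3896 bp) in the control list. It was the longest peak of the whole tet2/3 morpholino list, whose longest on a chromosome had 3786 bp. The next widest tet2/3 morpholino peaks were KN150552.1:19365-22141 (2777 bp), which met 2 control peaks, and KN149739.1:17922-20498 (2577 bp), which met a control peak of 2591 bp. The next widest control peaks were KN150617.1:34856-38027 (3172 bp) and KN150342.1:62038-64906 (2869 bp), each met by 2 tet2/3 morpholino peaks.

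Among scaffolds with at least 20 control peaks, the share met by a tet2/3 morpholino peak ran from 4.35 to 75.0%. These 36 scaffolds had a median share of 40.5% and an SD of 20.1 points. Runs of 25 consecutive control peaks on the chromosomes, 9052 in all, had a median of 28.0% and an SD of 15.6 points, and the middle 90% lay between 8.00 and 60.0%. Of the 36 scaffolds, 9 lay above that range and 1 below it. The lowest was KN149826.1, where 1 of 23 control peaks was met (0.772 to 21.0%). KN150204.1 followed with 3 of 28 and KN150021.1 with 5 of 36. The highest was KN150670.1, with 15 of 20 (53.1 to 88.8%), followed by KN150179.1 and KN150191.1, each with 17 of 23. Control fold alone would have given 30.0% on KN149826.1 and 36.3% on KN150670.1, by the shares of chromosome peaks of equal fold. Over the 36 scaffolds the share differed from that expectation by −25.6 to 39.2 points, with 27 above it. Share and median control fold of a scaffold had a Pearson correlation of 0.57 over the 36 scaffolds, given as a description, since all come from the same pair of libraries.

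**Figure D4:**
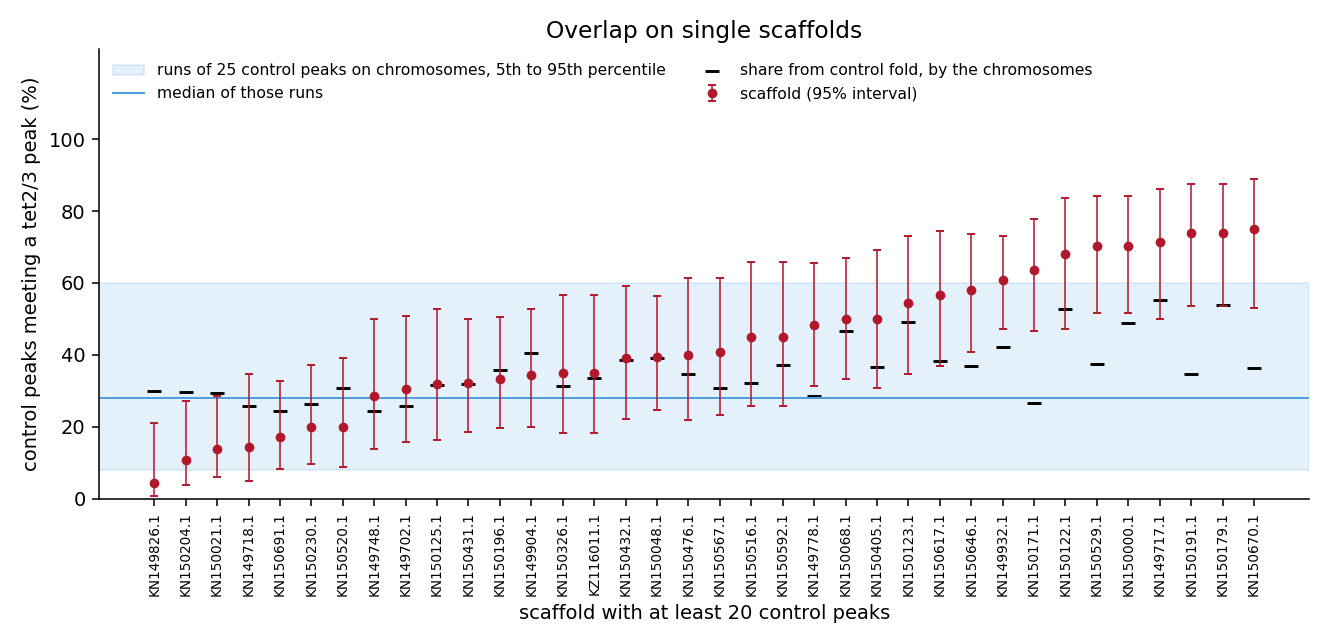
Percent of control peaks met by a tet2/3 morpholino peak on each of the 36 scaffolds with at least 20 control peaks, ordered by that share, with 95% Wilson intervals. Black dashes give the share from control fold alone; the blue band is the middle 90% of runs of 25 control peaks on chromosomes and the line their median (28.0%). Shares run from 4.35 to 75.0%, with 9 scaffolds above the band and 1 below it.

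On 3 scaffolds with neighbouring names the tet2/3 morpholino peaks had high folds and widths for their list, and the control peaks low folds for theirs. KN149684.1, KN149685.1 and KN149686.1 were chosen after their values had been seen, so what follows is a description. KN149684.1 held 22 tet2/3 morpholino and 16 control peaks, KN149685.1 held 11 tet2/3 morpholino and 14 control peaks, and KN149686.1 held 17 of each. On KN149684.1 the tet2/3 morpholino fold ran from 3.92 to 9.95 with a median of 7.19, and the control fold from 2.11 to 3.98 with a median of 2.81. The medians were 6.17 in tet2/3 morpholino and 2.85 in control peaks on KN149685.1, and 6.71 in tet2/3 morpholino and 3.02 in control peaks on KN149686.1. Each fold is read against the other scaffolds of its own list. Among the 79 scaffolds with at least 8 peaks in both lists, KN149684.1, KN149685.1 and KN149686.1 had ranks 1, 5 and 2 from the top by median tet2/3 morpholino fold. By median control fold they had ranks 1, 2 and 4 from the bottom. The fragments at the summit had a median of 73.0 in tet2/3 morpholino and 34.0 in control peaks, against 37.0 in tet2/3 morpholino and 36.0 in control peaks on the other scaffolds.

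The same scaffolds also differed from the others in width and in overlap. The median width was 665 bp in the tet2/3 morpholino and 374 bp in the control list, against 308 bp in the tet2/3 morpholino and 403 bp in the control list on the other scaffolds. Of 39 overlapping pairs, the tet2/3 morpholino peak was the wider one in 37, against 12.5% of 1822 pairs on the other scaffolds. Tet2/3 morpholino peaks covered 33.1 kb and control peaks 21.5 kb there. All 16 control peaks of KN149684.1 (80.6 to 100%) were met, although the chromosome shares at their fold would give 12.5%. Of 14150 runs of 16 consecutive control peaks on the chromosomes, 6 were met throughout. The run length was set to the control count of this scaffold after its values were seen, so these runs give no probability. On KN149685.1 9 of 14 and on KN149686.1 14 of 17 control peaks were met. The tet2/3 morpholino peaks went the other way, with 14 of 22 met by a control peak on KN149684.1. On the 3 scaffolds together 70.0% (56.2 to 80.9) of 50 tet2/3 morpholino peaks were met, against 85.3% on the other scaffolds. Of the 136 scaffolds with at least 5 overlapping pairs, 7 had a majority of pairs with the tet2/3 morpholino peak wider, and the 3 described here were among them. The median local background on the 3 scaffolds was 4.00 in tet2/3 morpholino and 10.1 in control peaks. On the other scaffolds it was 2.94 in tet2/3 morpholino and 7.58 in control peaks. On KN149684.1 alone it was 3.00 in tet2/3 morpholino and 8.04 in control peaks. The part of background in the folds of these scaffolds was not tested. Without these 3 scaffolds, 41.9% of control scaffold peaks were met and the ratio of peak numbers was 0.530.

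**Figure D5:**
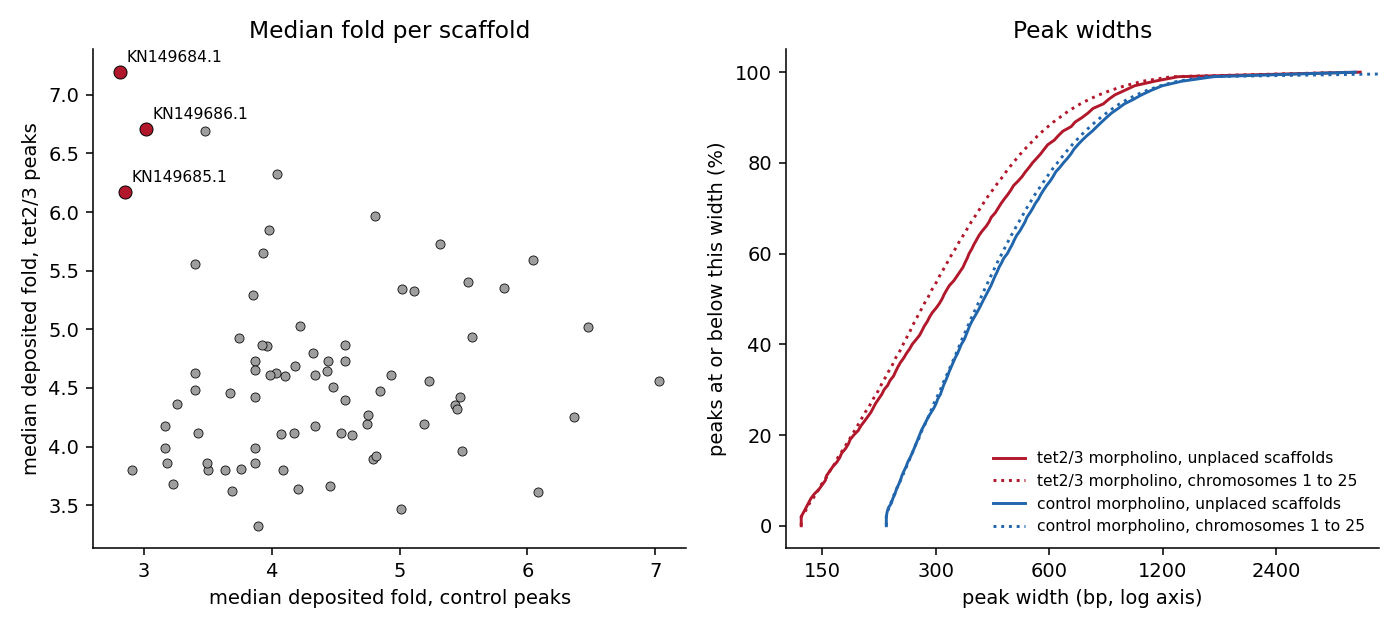
Left, the median deposited fold of tet2/3 morpholino peaks (vertical) against that of control peaks (horizontal) on the 79 scaffolds with at least 8 peaks in each list; KN149684.1, KN149685.1 and KN149686.1 (red) sit at the upper left. Right, cumulative percent of peaks by width (log axis) for tet2/3 morpholino (red) and control peaks (blue) on scaffolds (solid) and chromosomes (dotted); the tet2/3 morpholino curves separate, with medians of 312 and 285 bp, more than the control curves, with 403 and 394 bp.

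Scaffold peaks without a partner in the other list were weaker and narrower than those with one, in both lists. They numbered 324 in the tet2/3 morpholino list (15.05% of its scaffold peaks), on 200 scaffolds, against 9.59% of the whole list. Their medians were 3.86 for fold and 206 bp for width, against 4.61 and 337 bp for those with a partner. In the control list they numbered 2313 (57.65%), on 612 scaffolds, against 69.15% of the whole list. Their medians were 3.42 and 331 bp, against 5.04 and 559 bp. On chromosomes too, 9.81% of control peaks had a partner at a fold of 2 to 3 and 87.4% at 8 to 12. For tet2/3 morpholino peaks there it was 86.2% at 3 to 4 and 98.5% at 6 to 8. Medians of chromosome peaks without a partner are not given, so the difference is not shown to be particular to scaffolds.

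The strongest tet2/3 morpholino peak without a partner lay at KN149684.1:96837-97104, with a fold of 9.48 and the next control peak 9986 bp away. The second lay at KN149685.1:88290-88723, with a fold of 9.47 and a control peak 332 bp away, and the third at KN150103.1:2883-3065, with a fold of 7.84. The strongest control peak without a partner lay at KN150592.1:23426-24039, with a fold of 16.8 from 142 fragments. The next tet2/3 morpholino peak was 916 bp away, on the scaffold that also held the fifth of the strongest control peaks given above. KN150220.1:27614-29625, a peak of 2012 bp with a fold of 10.9, and KN149834.1:2000-2565, with a fold of 10.1, had the next tet2/3 morpholino peak at 4417 and 9433 bp.

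Control peaks close to the first base of a scaffold were met most often. With the summit within 1 kb of it, 60.0% (53.3 to 66.3) of 215 control peaks were met, against 40.8% (38.6 to 43.1) of 1771 beyond 20 kb. For tet2/3 morpholino peaks the shares were 81.2% (74.6 to 86.3) of 170 within 1 kb and 86.6% (84.2 to 88.7) of 895 beyond 20 kb. Control peaks within 1 kb had a median width of 480 bp and a median fold of 4.22, against 399 bp and 3.82 beyond 20 kb, and 67.9% of them were at the lowest background, against 37.9%. The part of fold, width and background in the higher share was not tested. The first base itself was the start of no tet2/3 morpholino and of 16 control scaffold peaks. The far ends of scaffolds could not be examined in this way, as scaffold lengths were not used here.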

How the data were processed

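Of the 4 libraries, an input and a pull-down per group, the pull-downs carry 1 peak list each. The submitters' processing notes name Bowtie2 2.2.6, deepTools and MACS2 2.2.7.1, and the builds GRCz11 and danRer11. Tool settings, pooling and the handling of reads with several matches: not given in the sources used here. The deposited score equals 10 times the −log10 q-value without its decimals, to within 1. The deposited fold is a ratio of summit pileup to local background, each with 1 added. The −log10 p and q-values are the authors' own, and the smallest −log10 q was 1.31.

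Peaks were counted as met with at least 1 bp shared (Python 3.11.15, pandas 2.3.3, numpy 2.4.6, scipy 1.17.1). Fragments and background were solved per peak from the deposited fold and p-value under a Poisson model, with the tet2/3 morpholino pileup scaled by 0.474. All peaks were solved (100% within a relative misfit of 0.0001), and the method was tested on simulated data. The number of mapped fragments is not given, so depth is known only at peaks. With 1 library per group no test was run. The rule named the 5 scaffolds richest in each list's peaks, the 3 richest single-list scaffolds of each list, the 5 strongest and 3 widest peaks, the 3 strongest without a partner, and the 3 lowest and highest shares. The members, lists and rules were chosen with earlier results of these data known. The classes by span and distance from the first base, the runs of control peaks and the 3 scaffolds from KN149684.1 to KN149686.1 were chosen after seeing the data.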

Additional observations from a re-analysis of the deposited data

How the results depend on the processing

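With both lists limited to a −log10 q of 5 or more, the scaffold ratio was 0.360 (chromosomes 0.202). The shares met were 88.1% of tet2/3 morpholino and 30.7% of control peaks (on chromosomes 93.1% of tet2/3 morpholino and 18.5% of control peaks). The median widths were 411 bp in tet2/3 morpholino and 435 bp in control peaks (on chromosomes 394 and 423 bp). Tet2/3-only scaffolds numbered 9. At a fold of at least 4, the ratio was 0.727 (chromosomes 0.420). The shares were 68.2% of tet2/3 morpholino and 46.6% of control peaks (on chromosomes 76.7% of tet2/3 morpholino and 31.3% of control peaks). The widths were 388 bp in tet2/3 morpholino and 547 bp in control peaks (on chromosomes 369 and 532 bp), and tet2/3-only scaffolds numbered 47. On scaffolds with peaks of both lists, the ratio was 0.594, the control share 47.3% and the control width 417 bp. Counting only scaffolds with at least 5 peaks in all left 0 tet2/3-only and 9 control-only scaffolds. An overlap of 50% of both intervals gave 50.3% of tet2/3 morpholino and 27.0% of control peaks, and a distance within 500 bp gave 90.5% of tet2/3 morpholino and 47.0% of control peaks. A control list shortened by q to the length of the other gave 52.1% of tet2/3 morpholino and 68.4% of control peaks (on chromosomes 62.5% of tet2/3 morpholino and 57.8% of control peaks). Stricter rules, shorter lists and fewer scaffolds lower or raise these values by their construction, and the cause of the rest was not tested. The scaffold ratio and control share stayed above those of the chromosomes under each alternative that was run on both. Leaving out KN149932.1, the scaffold with the most peaks, kept the ratio, shares and median widths over all scaffolds within their intervals. The same held without the 3 scaffolds KN149684.1, KN149685.1 and KN149686.1 (chosen after seeing the data). No interval for the classes by length was computed without them. No mitochondrial peak was in either list, so that alternative changed nothing. No paired analysis was possible because the design holds a single pull-down per group. Depth is known only at peaks, so how far it limits the calling of weak peaks was not tested. The lowest background was 2.81 in the tet2/3 morpholino and 7.53 in the control list. Those values are on unlike pileup scales, 0.474 and 1 per fragment, so they are not compared as sizes.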
